A study of Homo sapiens with 21 samples.

Results

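The keratin genes were taken as every row of both count tables that maps to a protein-coding symbol made of KRT and a number, with an optional letter A, B or C. Pseudogenes, antisense genes and keratin-associated protein genes were left out. This rule gave 55 genes of 60668 rows: 29 type I and 26 type II keratins. It used names only, so expression values did not decide which rows were members. Keratins were chosen as the subject with earlier results of these data known. All 55 matched the GENCODE 29 annotation by gene ID, with 28 in the cluster on chromosome 17 and 27 in the cluster on chromosome 12, where KRT18 is the type I member. The study measured polyA-selected RNA in 21 libraries of HCC1806, an established human triple-negative breast cancer cell line derived from a squamous-type carcinoma, grown as an adherent layer to near confluence. It has 7 groups of 3 libraries in separate count tables. The first table holds 3xCTL (labelled only as a control), 3xSR (SRSF2, SRSF3 and SRSF7 overexpressed together, per the series title) and MYC-OE (MYC overexpressed). The second table holds 1xCtrl, labelled a single-plasmid control, with SRSF2-OE, SRSF3-OE and SRSF7-OE, each labelled for that SR protein alone. The counts of the overexpressed genes are given below as a check of these labels. SR proteins are RNA-binding splicing regulators, and MYC is a transcription factor. The labels do not name the vectors, so whether 3xCTL carries the same plasmid as MYC-OE is not given in the sources used here. Nothing states that the 3 libraries of a group came from separate cultures, so p-values measure the spread between these libraries, which may be technical.

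Keratins are the intermediate filament proteins of epithelial cells. A type I (acidic) and a type II (basic) keratin must pair to build a filament, and the pair used marks the kind of epithelium: KRT8 with KRT18 in simple epithelium, KRT5 with KRT14 in the basal layer of stratified epithelium, KRT1 with KRT10 in the upper skin layers and KRT4 with KRT13 in mucosa such as the oesophagus. KRT6, KRT16 and KRT17 are induced in wounded or hyperproliferative skin. In the breast, KRT8, KRT18 and KRT19 mark luminal cells and KRT5, KRT14 and KRT17 mark basal cells.

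Before the keratins, the overexpressed genes were read as a check of the labels. SRSF2 was not higher in the libraries labelled for it: the log2 fold change (± SE, as for every fold change here) was -0.16 ± 0.064 (edgeR adjusted p = 0.0980) in SRSF2-OE and -0.064 ± 0.052 (edgeR adjusted p = 0.389) in 3xSR. These libraries are therefore called SRSF2-OE-labelled and 3xSR-labelled throughout. SRSF3 rose in SRSF3-OE (0.49 ± 0.070, edgeR adjusted p = 0.000193) and in the 3xSR-labelled libraries (0.31 ± 0.061, edgeR adjusted p = 0.00243). SRSF7 rose in SRSF7-OE (0.26 ± 0.055, edgeR adjusted p = 0.00616) and in the 3xSR-labelled libraries (0.44 ± 0.048, edgeR adjusted p = 3.57e-05). Both also rose in the SRSF2-OE-labelled libraries (SRSF3 0.30 ± 0.070, edgeR adjusted p = 0.00794; SRSF7 0.24 ± 0.055, edgeR adjusted p = 0.00681). MYC rose in MYC-OE (0.90 ± 0.047, edgeR adjusted p = 5.70e-08) and also in the 3xSR-labelled (0.75 ± 0.047, edgeR adjusted p = 4.01e-07), SRSF3-OE (0.26 ± 0.057, edgeR adjusted p = 0.00406) and SRSF7-OE libraries (0.27 ± 0.057, edgeR adjusted p = 0.00608). Of these 4 genes, 1 fell in MYC-OE and 1 fell in SRSF7-OE, an SR gene in each. Total counts ran from 143269192 to 303323552 per library. Of the markers fixed for the line, the 6 epithelial genes summed to between 1340.4 and 1646 CPM, the 3 receptor genes that are low in this cancer class to between 107 and 191, the 6 fibroblast genes to between 14.9 and 48.7, the 4 immune genes to between 6.14 and 36.5 and the 3 endothelial genes to between 0.137 and 1.28. No marker was at 0 in every library.

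Some libraries stood apart within their group, and the keratin values of those groups carry this spread. 1xCtrl replicate 2 had 16 of the 20 keratins compared above both other 1xCtrl libraries, with a median log2 difference of 0.33 (all genes -0.083). 1xCtrl replicate 3 had 17 of 20 below both others, a median of -0.31 (all genes 0.057). The share of all genes above or below both other libraries was not computed. Over all genes, GC-rich transcripts were higher than GC-poor ones by 0.803 (log2) in 1xCtrl replicate 2, and this difference was -0.535 in 1xCtrl replicate 3, each against the other libraries of the group. 3xCTL replicate 2 had 15 of 20 keratins below both other 3xCTL libraries, a median log2 difference of -0.25 (all genes 0.037), with a GC difference of -0.498. SRSF2-OE-labelled replicate 1 had 17 of 20 above both others of its group (median log2 difference 0.19, all genes 0.0016, GC difference 0.0295). SRSF3-OE replicate 2 had 17 of 20 below both others (-0.15, all genes 0.0065, GC difference 0.0789). Keratin transcripts are GC-rich: their median GC content was 58.2% against 48.9% for all genes tested in the second table. The part of GC content and of these libraries in the keratin differences was not tested as a cause, and where leaving out a library or removing the GC trend changed the call of a described keratin, the value is given with that keratin.

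The line made a mixed set of keratins, spanning basal, simple, mucosal and wound types. Of 55 genes, 23 reached a mean of 1 CPM (CPM are counts set against the library's scaled total) in at least 1 group: 10 type I and 13 type II. The 10 that reached 100 CPM were KRT5, KRT6A, KRT19, KRT7, KRT18, KRT8, KRT13, KRT4, KRT14 and KRT17. Per transcript length, the 10 keratins with the highest mean over all libraries held between 97.7% and 98.5% of all keratin signal in each library. On that per-length scale (TPM, in which counts are also divided by transcript length), KRT5 was the highest keratin in all 21 libraries and alone held between 21.2% and 32.9% of the sum. Its mean was 1969 ± 255 TPM in 3xCTL and 1817 ± 255 in 1xCtrl (SD, n = 3). KRT19 came next in 3xCTL at 1055 ± 265 and in 1xCtrl at 917 ± 402 TPM. In 3xCTL, KRT18 (692 ± 48.5), KRT6A (661 ± 62.7) and KRT7 (650.2 ± 118) followed, and these neighbours did not differ beyond their spread. KRT14 stood at 437 ± 85.4 TPM in 3xCTL and 659 ± 213 in 1xCtrl, levels that come from separate tables. KRT4 stood at 300.4 ± 24.4 and 149.5 ± 13.9 TPM, and KRT17 at 139.5 ± 33.5 and 88.9 ± 39.8. The other 13 described keratins stayed under 100 CPM, from KRT15, KRT6C and KRT16 down to KRT78 and KRT2.

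**Figure D1:**
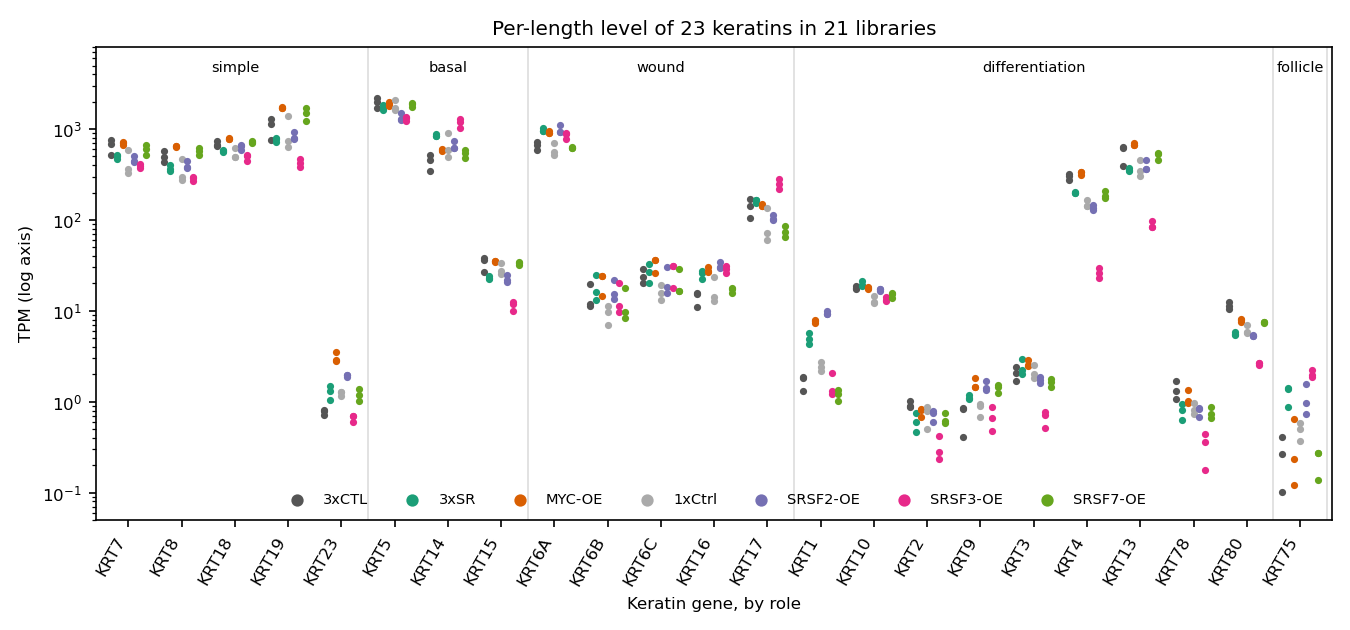
TPM on a log axis of the 23 keratins that reached 1 CPM, grouped by role, with each point a library and each colour a group. KRT5 is the highest keratin in every library, and KRT4 and KRT13 of the SRSF3-OE libraries lie far below their other groups.

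Each line was compared with the control of its own table, with edgeR's quasi-likelihood test, and a keratin counts as having risen or fallen where the p-value adjusted over all genes of the table (Benjamini-Hochberg) was under 0.05. After a filter on low counts, 39 keratins were tested in the first table and 40 in the second. In all, 26 keratins changed in at least 1 of the 5 contrasts, 12 changed in at least 3, and KRT1 changed in all 5. The matching shares over all genes were not computed and contrasts share controls, so these counts are not read as a result about keratins. In bulk RNA, fewer cells that make a keratin and less of its RNA per cell cannot be told apart. In the 3xSR-labelled libraries 6 keratins of 39 rose, against 15.3% of all 23160 genes tested, and 11 fell, against 13.7%. MYC-OE had 9 that rose (all genes 18.0%) and 4 that fell (all genes 17.3%). Among 40 keratins and 24362 genes of the second table, 8 rose (all genes 11.6%) and 1 fell (all genes 11.9%) in the SRSF2-OE-labelled libraries. SRSF3-OE had 5 that rose (all genes 15.0%) and 13 that fell (all genes 14.1%). SRSF7-OE had 6 that rose (all genes 9.03%) and 3 that fell (all genes 8.26%).

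Against the controls and over all genes tested, the widest gaps above the background were for keratins that fell in the SRSF3-OE (32.5%) and 3xSR-labelled libraries (28.2%). The shares that rose in the SRSF2-OE-labelled (20.0%), MYC-OE (23.1%) and SRSF7-OE libraries (15.0%) were above it by less. The share that rose in the 3xSR-labelled libraries (15.4%) was near the background. Well-expressed genes were called more often, so the same shares were read over genes with a mean of at least 1 CPM. There, 9 of 21 keratins fell in SRSF3-OE against 17.5% of genes, 9 of 20 rose in MYC-OE against 21.9%, and 8 of 21 rose in the SRSF2-OE-labelled libraries against 16.4%. The gap was narrower for the 7 of 20 that fell in the 3xSR-labelled libraries against 18.5% and the 6 of 21 that rose in SRSF7-OE against 13.2%. In the other direction, 5 of 20 rose in the 3xSR-labelled libraries against 19.7% and 1 of 20 fell in MYC-OE against 23.6%. Of 21 keratins in the second table, 1 fell in the SRSF2-OE-labelled libraries against 17.1% and 2 fell in SRSF7-OE against 11.8%. In SRSF3-OE 5 of 21 rose against 23.2%. The median log2 fold change of the keratins tested was 0.058 against -0.0038 over all genes tested in the 3xSR-labelled libraries, 0.35 against -0.0046 over all genes tested in MYC-OE and 0.22 against -0.011 over all genes tested in the SRSF2-OE-labelled libraries. It was -0.29 against -0.025 over all genes tested in SRSF3-OE and 0.14 against -0.0048 over all genes tested in SRSF7-OE. The 3xSR-labelled and MYC-OE contrasts share the 3xCTL libraries, and the SRSF2-OE-labelled, SRSF3-OE and SRSF7-OE contrasts share the 1xCtrl libraries, so their values are given side by side and likeness between them is not read as a result. Single libraries moved these counts: without 1xCtrl replicate 2, 14 of 42 keratins rose and 1 fell in the SRSF2-OE-labelled libraries, where 30.0% of all genes were called in either direction against 23.5% with all libraries. In SRSF7-OE 11 of 42 rose and 3 fell without it, with 29.2% of all genes called against 17.3%. The SRSF7-OE count of 9 was 3 without 1xCtrl replicate 1 (all genes 12.9%), 5 without 1xCtrl replicate 3 (all genes 14.4%), 6 without SRSF7-OE replicate 2 (all genes 12.7%), and 4 without SRSF7-OE replicate 1 (all genes 14.2%) or SRSF7-OE replicate 3 (all genes 10.7%). The 3xSR-labelled count was 8 that rose and 13 that fell without 3xCTL replicate 2 (all genes 38.5% in either direction, against 29% with all libraries), and 5 and 6 without 3xSR replicate 3 (all genes 20.5%). The share of all genes called moved in the same direction as the keratin count in each of these fits.

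**Figure D2:**
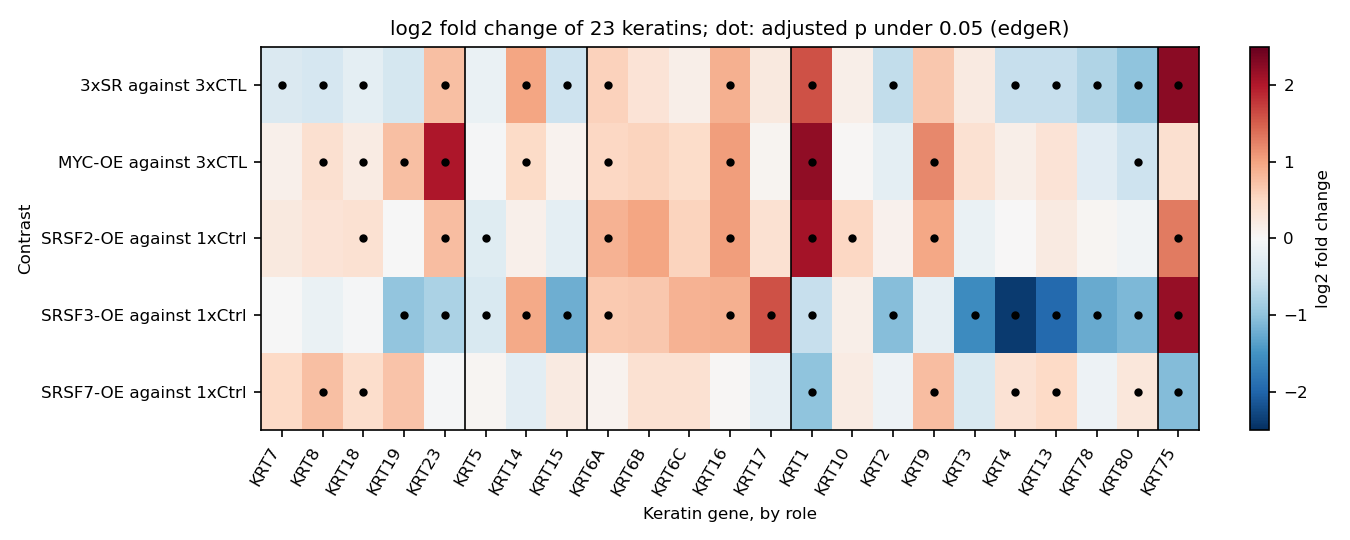
log2 fold change (colour) of 23 keratins in the 5 contrasts against a control, with genes grouped by role and a dot where edgeR's adjusted p was under 0.05. The SRSF3-OE row holds the deepest falls, KRT4 at -2.40 and KRT13 at -1.95, beside the rises of KRT75 and KRT17.

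The simple-epithelium keratins moved in opposite directions in different lines. KRT8 and KRT18, the filament pair of simple and luminal epithelium, fell in the 3xSR-labelled libraries, rose in MYC-OE and rose in SRSF7-OE. KRT8 (ENSG00000170421.12, chr12:52897187-52949954, minus strand) is the type II member. KRT8 CPM was 510.4, 403 and 443 in the 3xCTL libraries, 358, 334 and 320.2 in the 3xSR-labelled libraries and 598, 589 and 603 in the MYC-OE libraries. In the second table it was 268, 395 and 249 in the 1xCtrl libraries, 428, 359 and 371 in the SRSF2-OE-labelled, 281, 264 and 271 in the SRSF3-OE and 514, 473 and 548 in the SRSF7-OE libraries. Every 3xSR-labelled library lay below and every MYC-OE library above all 3xCTL libraries, and every SRSF7-OE library lay above all 1xCtrl libraries, while the SRSF2-OE-labelled and SRSF3-OE libraries overlapped 1xCtrl. The log2 fold change of KRT8 was -0.42 ± 0.076 (edgeR adjusted p = 0.00143) in the 3xSR-labelled libraries, 0.40 ± 0.076 (edgeR adjusted p = 0.00149) in MYC-OE and 0.75 ± 0.15 (edgeR adjusted p = 0.00598) in SRSF7-OE. With the GC trend removed the 3xSR-labelled value was -0.23, still past the threshold. KRT8 was at 0.35 in the SRSF2-OE-labelled libraries (edgeR adjusted p = 0.120), 0.57 without 1xCtrl replicate 2 (edgeR adjusted p = 0.000218) and, after removal of the GC trend, 0.36 (edgeR adjusted p = 0.000414), and at -0.16 in SRSF3-OE (edgeR adjusted p = 0.474). KRT8 in the SRSF7-OE libraries did not pass without 1xCtrl replicate 1, SRSF7-OE replicate 1 or SRSF7-OE replicate 3 (log2 fold change 0.62, 0.71, 0.67) or with only the pair of groups compared in the fit (0.75).

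KRT18 (ENSG00000111057.11, chr12:52948871-52952901, plus strand) is the type I partner and lies beside KRT8, on the other strand. KRT18 CPM was 529, 482 and 476 in the 3xCTL libraries, 419, 421 and 406 in the 3xSR-labelled libraries and 567, 573 and 577 in the MYC-OE libraries. The second table gave KRT18 at 348, 422 and 349 in the 1xCtrl libraries, 503, 491 and 455 in the SRSF2-OE-labelled, 385, 340.4 and 372 in the SRSF3-OE and 505, 502 and 511 in the SRSF7-OE libraries. Its libraries separated from their control in the same 3 lines as KRT8, and in the SRSF2-OE-labelled libraries as well, while SRSF3-OE overlapped 1xCtrl. KRT18 changed by -0.25 ± 0.050 (edgeR adjusted p = 0.00264) in the 3xSR-labelled libraries and by 0.21 ± 0.050 (edgeR adjusted p = 0.00662) in MYC-OE. It changed by 0.37 ± 0.079 (edgeR adjusted p = 0.00421) in the SRSF2-OE-labelled libraries and by 0.44 ± 0.079 (edgeR adjusted p = 0.00257) in SRSF7-OE. The annotation has 525 exon bases shared between KRT8 and KRT18 on opposite strands, and the strand setting of the counting is not given in the sources used here, so reads there cannot be assigned with certainty. Exons of KRT7, KRT10, KRT13, KRT23, KRT75 and KRT77 also overlap genes on the opposite strand. KRT18 in the 3xSR-labelled libraries did not pass with the GC trend removed (-0.087). KRT18 in the SRSF2-OE-labelled libraries did not pass without 1xCtrl replicate 1, 1xCtrl replicate 3, SRSF2-OE replicate 1 or SRSF2-OE replicate 2 (log2 fold change 0.26, 0.28, 0.29, 0.31) or with only the pair of groups compared in the fit (0.33). KRT18 in the SRSF7-OE libraries did not pass without 1xCtrl replicate 1 (log2 fold change 0.35).

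KRT7 (ENSG00000135480.16, chr12:52232520-52252186, plus strand), a type II keratin of glandular epithelium, passed the test in 1 contrast. KRT7 CPM was 627, 449 and 564 in the 3xCTL libraries, 428, 438 and 402 in the 3xSR-labelled libraries and 600.4, 571 and 614 in the MYC-OE libraries. For the second table, KRT7 CPM was 308, 469 and 277 in the 1xCtrl libraries, 454, 393 and 403 in the SRSF2-OE-labelled, 344, 336 and 363 in the SRSF3-OE and 501, 443 and 548 in the SRSF7-OE libraries. Every 3xSR-labelled library lay below every 3xCTL library, and all other lines overlapped their control. KRT7 fell in the 3xSR-labelled libraries (log2 fold change -0.37 ± 0.10, edgeR adjusted p = 0.0185). It was at 0.50 in SRSF7-OE (edgeR adjusted p = 0.0669). KRT7 in the 3xSR-labelled libraries did not pass without 3xCTL replicate 1, 3xCTL replicate 3, 3xSR replicate 1 or 3xSR replicate 3 (log2 fold change -0.28, -0.35, -0.38, -0.33) or with the GC trend removed (-0.12). Without 1xCtrl replicate 2, KRT7 passed the threshold in the SRSF2-OE-labelled (0.50) and SRSF7-OE libraries (0.78), and it passed in both with the GC trend removed (0.31 and 0.37) and in SRSF7-OE with DESeq2 (0.49). The value of KRT7 in SRSF3-OE was -0.014, and 0.18 with the GC trend removed, where it passed the threshold on the other side of 0.

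KRT19 (ENSG00000171345.13, chr17:41523617-41528308, minus strand), the smallest keratin and a type I luminal marker, changed in opposite directions in MYC-OE and SRSF3-OE. KRT19 CPM was 843, 521 and 744 in the 3xCTL libraries, 516, 545 and 495 in the 3xSR-labelled libraries and 1168, 1166 and 1196 in the MYC-OE libraries. KRT19 in the second table was at 488, 869 and 421 in the 1xCtrl libraries, 648, 561 and 562 in the SRSF2-OE-labelled, 298, 274 and 329 in the SRSF3-OE and 988, 822 and 1110.3 in the SRSF7-OE libraries. The MYC-OE libraries lay above all 3xCTL libraries and the SRSF3-OE libraries below all 1xCtrl libraries, and the rest overlapped, with 1xCtrl replicate 2 above the other 1xCtrl libraries. KRT19 rose by 0.74 ± 0.15 (edgeR adjusted p = 0.00466) in MYC-OE and fell in SRSF3-OE (-0.98 ± 0.24, edgeR adjusted p = 0.0136). It was at -0.44 in the 3xSR-labelled libraries (edgeR adjusted p = 0.0573) and at 0.72 in SRSF7-OE (edgeR adjusted p = 0.0744). Without 3xCTL replicate 2 the value in the 3xSR-labelled libraries was -0.61, and without 1xCtrl replicate 2 that in SRSF7-OE was 1.11, each past the threshold. With the GC trend removed these values were -0.17 and 0.65, also past it. DESeq2 called both (-0.44 and 0.71), and upper-quartile scaling the former (-0.43). KRT19 in the SRSF3-OE libraries did not pass without SRSF3-OE replicate 1 or SRSF3-OE replicate 2 (log2 fold change -1.04, -0.98) or with only the pair of groups compared in the fit (-1.03). Without 1xCtrl replicate 2 the SRSF3-OE value was -0.61, still past the threshold (edgeR adjusted p = 0.00672).

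KRT23 (ENSG00000108244.16, chr17:40922696-40937634, minus strand), a type I keratin of gut and other glandular cells, was low but changed in 4 of 5 contrasts. KRT23 CPM was 0.738, 0.691 and 0.772 in the 3xCTL libraries, 1.42, 1.28 and 1.01 in the 3xSR-labelled libraries and 2.73, 2.78 and 3.41 in the MYC-OE libraries. In the second table it was 1.21, 1.04 and 1.20 in the 1xCtrl libraries, 1.99, 2.02 and 1.92 in the SRSF2-OE-labelled, 0.696, 0.621 and 0.689 in the SRSF3-OE and 1.31, 1.13 and 0.937 in the SRSF7-OE libraries. The MYC-OE libraries held the highest values of all groups, and 4 of the 5 lines did not overlap their control, SRSF7-OE being the exception. KRT23 rose in MYC-OE (log2 fold change 2.02 ± 0.16, edgeR adjusted p = 1.48e-06), in the 3xSR-labelled (0.75 ± 0.16, edgeR adjusted p = 0.00353) and in the SRSF2-OE-labelled libraries (0.78 ± 0.15, edgeR adjusted p = 0.00187). It fell in SRSF3-OE (-0.78 ± 0.15, edgeR adjusted p = 0.00141). KRT20, the fourth type I keratin of this role, stayed under 1 CPM and passed in no contrast against a control.

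Of the 3 basal keratins, KRT14 rose in 3 lines while KRT5, its type II partner, did not rise in any. KRT5 (ENSG00000186081.12, chr12:52514575-52520687, minus strand) had the highest per-length level of all keratins. KRT5 CPM was 2651, 2116 and 2403 in the 3xCTL libraries, 2226, 2028 and 2132 in the 3xSR-labelled libraries and 2421, 2357 and 2239 in the MYC-OE libraries. The second table gave KRT5 at 2062, 2422 and 1968 in the 1xCtrl libraries, 1915, 1626 and 1680.3 in the SRSF2-OE-labelled, 1719, 1600.1 and 1666 in the SRSF3-OE and 2245, 2128 and 2286 in the SRSF7-OE libraries. The SRSF2-OE-labelled and SRSF3-OE libraries all lay below the 1xCtrl libraries, and the other lines overlapped their controls. KRT5 fell in the SRSF2-OE-labelled libraries (log2 fold change -0.31 ± 0.085, edgeR adjusted p = 0.0193) and in SRSF3-OE (-0.37 ± 0.085, edgeR adjusted p = 0.00500). KRT5 in the SRSF2-OE-labelled libraries did not pass without SRSF2-OE replicate 2 or SRSF2-OE replicate 3 (log2 fold change -0.30, -0.33) or with only the pair of groups compared in the fit (-0.35). In the 3xSR-labelled libraries KRT5 was at -0.17 (edgeR adjusted p = 0.118) and, without 3xCTL replicate 2, at -0.25 (edgeR adjusted p = 0.00389).

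KRT14 (ENSG00000186847.6, chr17:41582279-41586921, minus strand) is the basal type I keratin. KRT14 CPM was 404, 281 and 359 in the 3xCTL libraries, 702, 687 and 675 in the 3xSR-labelled libraries and 494, 470.3 and 481 in the MYC-OE libraries. For the second table, KRT14 CPM was 465, 677 and 388 in the 1xCtrl libraries, 621, 522 and 531 in the SRSF2-OE-labelled, 988, 893 and 1064 in the SRSF3-OE and 428, 388 and 454 in the SRSF7-OE libraries. All 3xSR-labelled and MYC-OE libraries lay above all 3xCTL libraries, and all SRSF3-OE libraries lay above all 1xCtrl libraries, including the high replicate 2. KRT14 rose by 0.98 ± 0.10 (edgeR adjusted p = 7.28e-05) in the 3xSR-labelled libraries, by 0.47 ± 0.10 (edgeR adjusted p = 0.00546) in MYC-OE and by 0.94 ± 0.17 (edgeR adjusted p = 0.00214) in SRSF3-OE. Without 1xCtrl replicate 2 the SRSF3-OE value was 1.19, and the SRSF2-OE-labelled value moved from 0.13 to 0.38 and passed the threshold. In SRSF7-OE KRT14 was at -0.27 (edgeR adjusted p = 0.332), and at -0.32 with the GC trend removed, past the threshold. KRT15 (ENSG00000171346.16, chr17:41513743-41522529, minus strand), a type I keratin of basal cells at rest, went the other way. Its mean was 61.5 CPM in 3xCTL, 43.1 in the 3xSR-labelled and 65.2 in the MYC-OE libraries, and 51.5 in 1xCtrl, 43.7 in the SRSF2-OE-labelled, 22.1 in SRSF3-OE and 59.97 in SRSF7-OE. KRT15 fell in SRSF3-OE (log2 fold change -1.22 ± 0.10, edgeR adjusted p = 2.07e-06) and in the 3xSR-labelled libraries (-0.51 ± 0.10, edgeR adjusted p = 0.00309), with no overlap. It passed elsewhere with another setting: in the SRSF2-OE-labelled libraries without 1xCtrl replicate 3 (-0.35) or with the GC trend removed (-0.25), and in SRSF7-OE without 1xCtrl replicate 2 (0.32) or with the GC trend removed (0.21).

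The wound keratins rose or did not pass the test, and none fell, except that KRT17 was called lower in SRSF7-OE after removal of the GC trend (-0.27, edgeR adjusted p = 0.0381). KRT6A and KRT16 both rose in 4 of 5 lines, all but SRSF7-OE, and KRT17 rose in SRSF3-OE. KRT6A (ENSG00000205420.11, chr12:52487174-52493257, minus strand) is the most abundant KRT6 copy. KRT6A CPM was 785, 673 and 741 in the 3xCTL libraries, 1137, 1080.3 and 1079.6 in the 3xSR-labelled libraries and 1077, 1019.5 and 1033 in the MYC-OE libraries. KRT6A in the second table was at 611, 739.8 and 563 in the 1xCtrl libraries, 1288, 1108 and 1100.0 in the SRSF2-OE-labelled, 1031, 938 and 1044 in the SRSF3-OE and 682, 681 and 684 in the SRSF7-OE libraries. Every library of the 3xSR-labelled, MYC-OE, SRSF2-OE-labelled and SRSF3-OE groups lay above every library of its control, and SRSF7-OE overlapped 1xCtrl. KRT6A rose by 0.58 ± 0.059 (edgeR adjusted p = 1.95e-05) in the 3xSR-labelled and by 0.51 ± 0.059 (edgeR adjusted p = 3.98e-05) in the MYC-OE libraries. It rose by 0.87 ± 0.10 (edgeR adjusted p = 4.40e-05) in the SRSF2-OE-labelled and by 0.66 ± 0.10 (edgeR adjusted p = 0.000209) in the SRSF3-OE libraries. In SRSF7-OE it was at 0.10, and at 0.23 without 1xCtrl replicate 2, where it passed the threshold. KRT6B and KRT6C, near-identical copies whose reads may be split among the 3 genes, had group means between 9.95 and 23.4 CPM and between 17.05 and 36.6 CPM, and passed in no contrast against a control with edgeR, while DESeq2 called KRT6B higher in the SRSF2-OE-labelled and KRT6C higher in the SRSF3-OE libraries. With the counts of KRT6A, KRT6B and KRT6C summed, the log2 fold change was 0.57 in the 3xSR-labelled, 0.51 in the MYC-OE, 0.86 in the SRSF2-OE-labelled and 0.66 in the SRSF3-OE libraries, each past the threshold, and 0.11 in SRSF7-OE.

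KRT16 (ENSG00000186832.9, chr17:41609778-41615899, minus strand) is the type I partner of KRT6 in wounded skin. KRT16 CPM was 12.2, 9.001 and 11.9 in the 3xCTL libraries, 21.7, 21.3 and 18.1 in the 3xSR-labelled libraries and 21.6, 22.3 and 24.4 in the MYC-OE libraries. In the second table it was 11.2, 17.4 and 9.98 in the 1xCtrl libraries, 28.6, 25.0 and 26.1 in the SRSF2-OE-labelled, 23.6, 22.2 and 25.8 in the SRSF3-OE and 13.6, 12.4 and 13.5 in the SRSF7-OE libraries. The same 4 lines as for KRT6A lay wholly above their control. KRT16 rose by 0.88 ± 0.11 (edgeR adjusted p = 0.000157) in the 3xSR-labelled and by 1.05 ± 0.11 (edgeR adjusted p = 3.10e-05) in the MYC-OE libraries. It rose by 1.05 ± 0.17 (edgeR adjusted p = 0.00110) in the SRSF2-OE-labelled and by 0.89 ± 0.17 (edgeR adjusted p = 0.00200) in the SRSF3-OE libraries. In SRSF7-OE it was at 0.031, and at 0.32 without 1xCtrl replicate 2, past the threshold.

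KRT17 (ENSG00000128422.17, chr17:41619441-41624842, minus strand), a type I keratin of wounded skin and basal-like tumours, differed most in SRSF3-OE. KRT17 CPM was 128, 81.2 and 108 in the 3xCTL libraries, 126, 131 and 119 in the 3xSR-labelled libraries and 109.7, 109 and 116 in the MYC-OE libraries. The second table gave KRT17 at 54.7, 96.5 and 45.2 in the 1xCtrl libraries, 90.0, 81.0 and 83.2 in the SRSF2-OE-labelled, 197, 178 and 220.4 in the SRSF3-OE and 55.7, 49.7 and 63.6 in the SRSF7-OE libraries. Every SRSF3-OE library lay above every 1xCtrl library, and all other lines overlapped their control. KRT17 rose by 1.60 ± 0.25 (edgeR adjusted p = 0.00110) in SRSF3-OE and by 1.98 there without 1xCtrl replicate 2. It was at 0.37 in the SRSF2-OE-labelled libraries, at 0.76 without that library and at 0.48 with the GC trend removed, both past the threshold. Its 3xSR-labelled value was 0.24, and it passed at 0.39 without 3xCTL replicate 1 and, after removal of the GC trend, at 0.51 (edgeR adjusted p = 8.75e-06). In SRSF7-OE it was at -0.22 (edgeR adjusted p = 0.610). The genes KRT14, KRT16 and KRT17 have near-identical stretches and pseudogenes, so the split of reads among them is uncertain. Their summed counts had a log2 fold change of 0.84 in the 3xSR-labelled libraries, 0.41 in MYC-OE and 1.03 in SRSF3-OE, each past the threshold, with 0.19 in the SRSF2-OE-labelled libraries and -0.26 in SRSF7-OE.

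Of the keratins of differentiated skin, cornea and mucosa, 12 were tested in SRSF3-OE, where 9 fell (all genes 14.1%) and none rose. Falls there were not limited to them, since KRT5, KRT15, KRT19 and KRT23 fell as well. In the 3xSR-labelled libraries 5 fell (all genes 13.7%) and 1 rose (all genes 15.3%). In MYC-OE 2 rose (all genes 18.0%) and 2 fell (all genes 17.3%), which is near those shares. In the SRSF2-OE-labelled libraries 3 rose (all genes 11.6%) and none fell (all genes 11.9%). In SRSF7-OE 4 rose (all genes 9.03%) and 2 fell (all genes 8.26%). KRT4 (ENSG00000170477.13, chr12:52806549-52814551, minus strand), the type II keratin of mucosa, had the largest fall among the keratins that passed in SRSF3-OE. KRT4 CPM was 394, 347 and 374 in the 3xCTL libraries, 248, 251 and 251 in the 3xSR-labelled libraries and 424, 421 and 392 in the MYC-OE libraries. For the second table, KRT4 CPM was 174, 193 and 173 in the 1xCtrl libraries, 192, 178 and 174 in the SRSF2-OE-labelled, 33.6, 31.0 and 37.8 in the SRSF3-OE and 253, 218 and 219.7 in the SRSF7-OE libraries. The SRSF3-OE libraries were far below all other libraries of the table, the 3xSR-labelled libraries were below all 3xCTL libraries, and the SRSF7-OE libraries were above all 1xCtrl libraries. KRT4 fell in SRSF3-OE (log2 fold change -2.40 ± 0.088, edgeR adjusted p = 4.25e-09) and in the 3xSR-labelled libraries (-0.57 ± 0.055, edgeR adjusted p = 1.34e-05), and rose in SRSF7-OE (0.35 ± 0.083, edgeR adjusted p = 0.0114). KRT4 in the SRSF7-OE libraries did not pass without 1xCtrl replicate 1, 1xCtrl replicate 3, SRSF7-OE replicate 1 or SRSF7-OE replicate 3 (log2 fold change 0.28, 0.29, 0.25, 0.36). In MYC-OE it was at 0.15 (edgeR adjusted p = 0.0524), and it passed in 8 of 16 alternatives, with values from 0.13 with the GC trend removed to 0.19 without 3xCTL replicate 1 or MYC-OE replicate 3, DESeq2 (0.16) and limma-voom (0.15) among them.

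KRT13 (ENSG00000171401.15, chr17:41500981-41505705, minus strand) is the type I partner of KRT4. KRT13 CPM was 498, 325 and 509 in the 3xCTL libraries, 286, 315 and 289 in the 3xSR-labelled libraries and 585, 558 and 555 in the MYC-OE libraries. KRT13 in the second table was at 281, 350.2 and 248 in the 1xCtrl libraries, 392, 312 and 324 in the SRSF2-OE-labelled, 71.5, 72.8 and 83.4 in the SRSF3-OE and 440.0, 377 and 424 in the SRSF7-OE libraries. The 3 SRSF3-OE libraries were again the lowest of the table, and the MYC-OE libraries were above all 3xCTL libraries without passing the test. KRT13 fell in SRSF3-OE (log2 fold change -1.95 ± 0.13, edgeR adjusted p = 8.98e-07) and in the 3xSR-labelled libraries (-0.58 ± 0.15, edgeR adjusted p = 0.0210), and rose in SRSF7-OE (0.50 ± 0.13, edgeR adjusted p = 0.0178). In MYC-OE it was at 0.35, and passed without 3xCTL replicate 2 (0.17), with DESeq2 (0.36) and with the GC trend removed (0.33). In the SRSF2-OE-labelled libraries it was at 0.22, and passed without 1xCtrl replicate 2 (0.37) and with the GC trend removed (0.22). KRT13 in the 3xSR-labelled libraries did not pass without 3xCTL replicate 1, 3xCTL replicate 3, 3xSR replicate 1 or 3xSR replicate 3 (log2 fold change -0.51, -0.48, -0.56, -0.56) or with only the pair of groups compared in the fit (-0.58). KRT13 in the SRSF7-OE libraries did not pass without 1xCtrl replicate 1, 1xCtrl replicate 3, SRSF7-OE replicate 1, SRSF7-OE replicate 2 or SRSF7-OE replicate 3 (log2 fold change 0.42, 0.36, 0.42, 0.54, 0.45), with no filter (0.49) or with only the pair of groups compared in the fit (0.49).

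**Figure D3:**
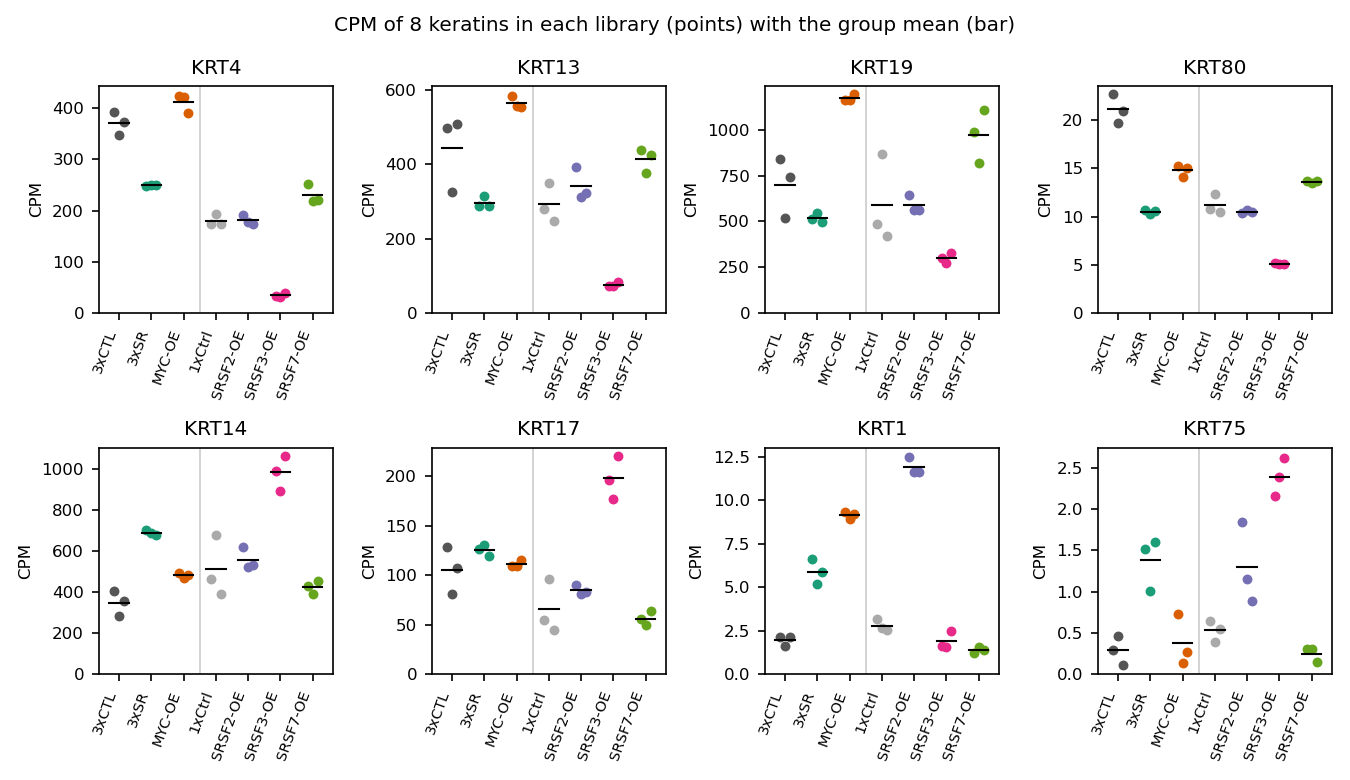
CPM of 8 keratins, each point a library and each bar a group mean, with the first table left and the second right of the grey line and every axis starting at 0. KRT4 and KRT13 of the SRSF3-OE libraries lie far below their control, KRT14 and KRT17 above it, and KRT1 is highest in the SRSF2-OE-labelled libraries.

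KRT1 (ENSG00000167768.4, chr12:52674736-52680407, minus strand), the type II keratin of the upper skin layers, was low in every group and was the keratin that changed in all 5 contrasts. KRT1 CPM was 2.13, 1.60 and 2.17 in the 3xCTL libraries, 6.61, 5.204 and 5.89 in the 3xSR-labelled libraries and 9.34, 8.89 and 9.20 in the MYC-OE libraries. In the second table it was 3.16, 2.67 and 2.56 in the 1xCtrl libraries, 12.5, 11.6 and 11.6 in the SRSF2-OE-labelled, 1.61, 1.54 and 2.51 in the SRSF3-OE and 1.20, 1.57 and 1.40 in the SRSF7-OE libraries. The 3xSR-labelled, MYC-OE and SRSF2-OE-labelled libraries lay above, and the SRSF3-OE and SRSF7-OE libraries below, every library of their control. KRT1 rose by 1.59 ± 0.13 (edgeR adjusted p = 3.13e-06) in the 3xSR-labelled libraries, by 2.22 ± 0.13 (edgeR adjusted p = 1.35e-07) in MYC-OE and by 2.09 ± 0.18 (edgeR adjusted p = 6.37e-06) in the SRSF2-OE-labelled libraries. It fell in SRSF3-OE (-0.57 ± 0.17, edgeR adjusted p = 0.0242) and in SRSF7-OE (-1.01 ± 0.17, edgeR adjusted p = 0.00200). KRT1 in the SRSF3-OE libraries did not pass without 1xCtrl replicate 1, SRSF3-OE replicate 1 or SRSF3-OE replicate 2 (log2 fold change -0.54, -0.51, -0.48) or with only the pair of groups compared in the fit (-0.60). KRT10 (ENSG00000186395.8, chr17:40818117-40822595, minus strand), its type I partner, passed against the control in the SRSF2-OE-labelled libraries, where it rose by 0.52 ± 0.087 (edgeR adjusted p = 0.000964), from a mean of 13.01 CPM in 1xCtrl to 18.6. KRT10 in the 3xSR-labelled libraries was at 0.15, and passed at 0.19 without 3xCTL replicate 2 and at 0.17 with the GC trend removed. It was in SRSF7-OE at 0.21, and at 0.28 without 1xCtrl replicate 3, past the threshold.

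KRT9 (ENSG00000171403.10, chr17:41565841-41572058, minus strand), a type I keratin of palm and sole skin, stood near 1 CPM. KRT9 CPM was 0.933, 0.939 and 0.444 in the 3xCTL libraries, 1.21, 1.19 and 1.31 in the 3xSR-labelled libraries and 1.62, 1.63 and 2.06 in the MYC-OE libraries. The second table gave KRT9 at 1.03, 0.928 and 0.731 in the 1xCtrl libraries, 1.94, 1.59 and 1.70 in the SRSF2-OE-labelled, 0.752, 0.567 and 0.991 in the SRSF3-OE and 1.57, 1.68 and 1.34 in the SRSF7-OE libraries. The MYC-OE, 3xSR-labelled, SRSF2-OE-labelled and SRSF7-OE libraries all lay above their controls, and SRSF3-OE overlapped. KRT9 rose by 1.19 ± 0.24 (edgeR adjusted p = 0.00221) in MYC-OE, by 0.96 ± 0.20 (edgeR adjusted p = 0.00392) in the SRSF2-OE-labelled libraries and by 0.77 ± 0.20 (edgeR adjusted p = 0.0191) in SRSF7-OE. Its value in the 3xSR-labelled libraries was 0.68 (edgeR adjusted p = 0.0551), and it passed without 3xCTL replicate 2 (0.83), with the GC trend removed (0.73), with DESeq2 and with at least 10 counts in every library (0.68 in each). KRT9 in the SRSF7-OE libraries did not pass without 1xCtrl replicate 3, SRSF7-OE replicate 1 or SRSF7-OE replicate 2 (log2 fold change 0.61, 0.72, 0.68).

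KRT80 (ENSG00000167767.14, chr12:52168996-52192000, minus strand), a type II keratin, changed in 4 contrasts. KRT80 CPM was 22.7, 19.8 and 20.9 in the 3xCTL libraries, 10.7, 10.2 and 10.6 in the 3xSR-labelled libraries and 15.3, 14.1 and 15.0 in the MYC-OE libraries. For the second table, KRT80 CPM was 10.8, 12.3 and 10.4 in the 1xCtrl libraries, 10.4, 10.7 and 10.5 in the SRSF2-OE-labelled, 5.13, 5.10 and 5.12 in the SRSF3-OE and 13.7, 13.5 and 13.7 in the SRSF7-OE libraries. No line other than the SRSF2-OE-labelled one overlapped its control, with the 3xSR-labelled, MYC-OE and SRSF3-OE libraries below and the SRSF7-OE libraries above. KRT80 fell in the 3xSR-labelled libraries (log2 fold change -1.01 ± 0.069, edgeR adjusted p = 8.73e-07), in MYC-OE (-0.51 ± 0.069, edgeR adjusted p = 0.000114) and in SRSF3-OE (-1.13 ± 0.078, edgeR adjusted p = 6.01e-07). It rose in SRSF7-OE (0.28 ± 0.076, edgeR adjusted p = 0.0218). KRT80 in the SRSF7-OE libraries did not pass without 1xCtrl replicate 1, 1xCtrl replicate 3, SRSF7-OE replicate 1, SRSF7-OE replicate 2 or SRSF7-OE replicate 3 (log2 fold change 0.21, 0.20, 0.25, 0.27, 0.26), with no filter (0.28) or with only the pair of groups compared in the fit (0.28).

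The other members of this role were low. KRT3 (ENSG00000186442.7, chr12:52789685-52796117, minus strand), the cornea keratin, had a mean of 2.32 CPM in 1xCtrl and 0.785 in SRSF3-OE and fell there by 1.56 (log2, with SE 0.17 and edgeR adjusted p = 2.09e-05). KRT3 passed in no other contrast against a control, but did in MYC-OE without 3xCTL replicate 3 (0.50 against 0.38 with it), and with the GC trend removed in the 3xSR-labelled (0.40) and SRSF7-OE libraries (-0.45). KRT2 (ENSG00000172867.4, chr12:52644558-52652164, minus strand), of the upper layers of skin, fell in SRSF3-OE (-1.07 ± 0.26, edgeR adjusted p = 0.00652) and in the 3xSR-labelled libraries (-0.61 ± 0.19, edgeR adjusted p = 0.0314). KRT78 (ENSG00000170423.13, chr12:52837804-52849092, minus strand) fell in the same lines (-1.26 ± 0.27, edgeR adjusted p = 0.00304 and -0.76 ± 0.21, edgeR adjusted p = 0.0177). KRT2 in the 3xSR-labelled libraries did not pass without 3xCTL replicate 1, 3xCTL replicate 3, 3xSR replicate 1 or 3xSR replicate 3 (log2 fold change -0.65, -0.55, -0.44, -0.61) or with only the pair of groups compared in the fit (-0.61). KRT78 in the 3xSR-labelled libraries did not pass without 3xCTL replicate 3, 3xSR replicate 2 or 3xSR replicate 3 (log2 fold change -0.60, -0.64, -0.78). Under 1 CPM, KRT77 fell in SRSF3-OE (-1.25 ± 0.26, edgeR adjusted p = 0.00287) and SRSF7-OE (-1.87 ± 0.27, edgeR adjusted p = 0.000718), KRT79 fell in SRSF3-OE (-1.11 ± 0.31, edgeR adjusted p = 0.0149) and KRT24 fell in MYC-OE (-1.42 ± 0.34, edgeR adjusted p = 0.00644).

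Of the 9 keratins of the hair follicle's inner root sheath and companion layer, KRT75 (ENSG00000170454.6, chr12:52424070-52434525, minus strand) of the companion layer was the 1 that reached 1 CPM. KRT75 CPM was 0.290, 0.464 and 0.111 in the 3xCTL libraries, 1.52, 1.01 and 1.61 in the 3xSR-labelled libraries and 0.731, 0.139 and 0.268 in the MYC-OE libraries. KRT75 in the second table was at 0.650, 0.3901 and 0.553 in the 1xCtrl libraries, 1.84, 1.16 and 0.893 in the SRSF2-OE-labelled, 2.15, 2.39 and 2.62 in the SRSF3-OE and 0.304, 0.301 and 0.148 in the SRSF7-OE libraries. The 3xSR-labelled, SRSF2-OE-labelled and SRSF3-OE libraries lay above, and the SRSF7-OE libraries below, every library of their control, and no library was above 2.62 CPM. KRT75 rose by 2.25 ± 0.66 (edgeR adjusted p = 0.0372) in the 3xSR-labelled libraries, by 1.29 ± 0.31 (edgeR adjusted p = 0.00890) in the SRSF2-OE-labelled libraries and by 2.17 ± 0.31 (edgeR adjusted p = 0.000241) in SRSF3-OE, and fell in SRSF7-OE (-1.08 ± 0.32, edgeR adjusted p = 0.0340). KRT75 in the 3xSR-labelled libraries did not pass without 3xCTL replicate 1, 3xCTL replicate 3, 3xSR replicate 1, 3xSR replicate 2 or 3xSR replicate 3 (log2 fold change 2.25, 1.87, 2.17, 2.43, 2.13), with the replicate block (2.29), with no filter (2.24) or with the GC trend removed (2.36). KRT75 in the SRSF7-OE libraries did not pass without 1xCtrl replicate 1, 1xCtrl replicate 3 or SRSF7-OE replicate 3 (log2 fold change -0.95, -1.08, -0.82), with limma-voom (-1.15) or with only the pair of groups compared in the fit (-1.09).

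None of the 17 hair keratins reached 1 CPM, the highest group mean being 0.711 CPM for KRT81 in 3xCTL. KRT81 fell in the 3xSR-labelled libraries (-0.90 ± 0.22, edgeR adjusted p = 0.00905) and in MYC-OE (-0.74 ± 0.22, edgeR adjusted p = 0.0195), and so did KRT86 (-1.26 ± 0.38, edgeR adjusted p = 0.0267 and -1.17 ± 0.38, edgeR adjusted p = 0.0288). KRT81, KRT83 and KRT86 are near-identical copies, and their summed counts changed by -1.03 in the 3xSR-labelled libraries and -0.76 in MYC-OE, a sum chosen after their values were seen. In all, 18 keratins were tested with every group mean under 1 CPM, among them KRT222, KRT20, KRT71, KRT72, KRT73 and KRT74. The other 14 keratins passed the filter in neither table: their highest group mean was 0.303 CPM, for KRT76, and 4 of them (KRT25, KRT26, KRT33B and KRT35) had 0 counts in all 21 libraries.

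Some neighbouring genes of the clusters changed in the same direction in SRSF3-OE, where 14.1% of all genes fell and 15.0% rose. Calls outside the stretches named below were the falls of KRT80 (-1.13), KRT5 (-0.37) and KRT23 (-0.78). On chromosome 12 (coordinates from GENCODE 29, GRCh38), all 7 tested genes of the stretch from KRT2 to KRT78 (chr12:52644558-52849092: KRT2, KRT1, KRT77, KRT76, KRT3, KRT4, KRT79 and KRT78) fell, with log2 fold changes from -2.40 to -0.57, KRT76 not being tested. The stretch KRT75, KRT6B, KRT6C and KRT6A (chr12:52424070-52493257) held 4 positive values, from 0.66 to 2.17, of which KRT75 and KRT6A passed. On chromosome 17, the neighbours KRT13, KRT15 and KRT19 (chr17:41500981-41528308) all fell, and KRT14, KRT16 and KRT17 (chr17:41582279-41624842) all rose. In the 3xSR-labelled libraries the same chromosome 12 stretch had 3 genes that fell and 1, KRT1, that rose (-0.76 to 1.59). These stretches were picked after the values were seen, so they carry no test.

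**Figure D4:**
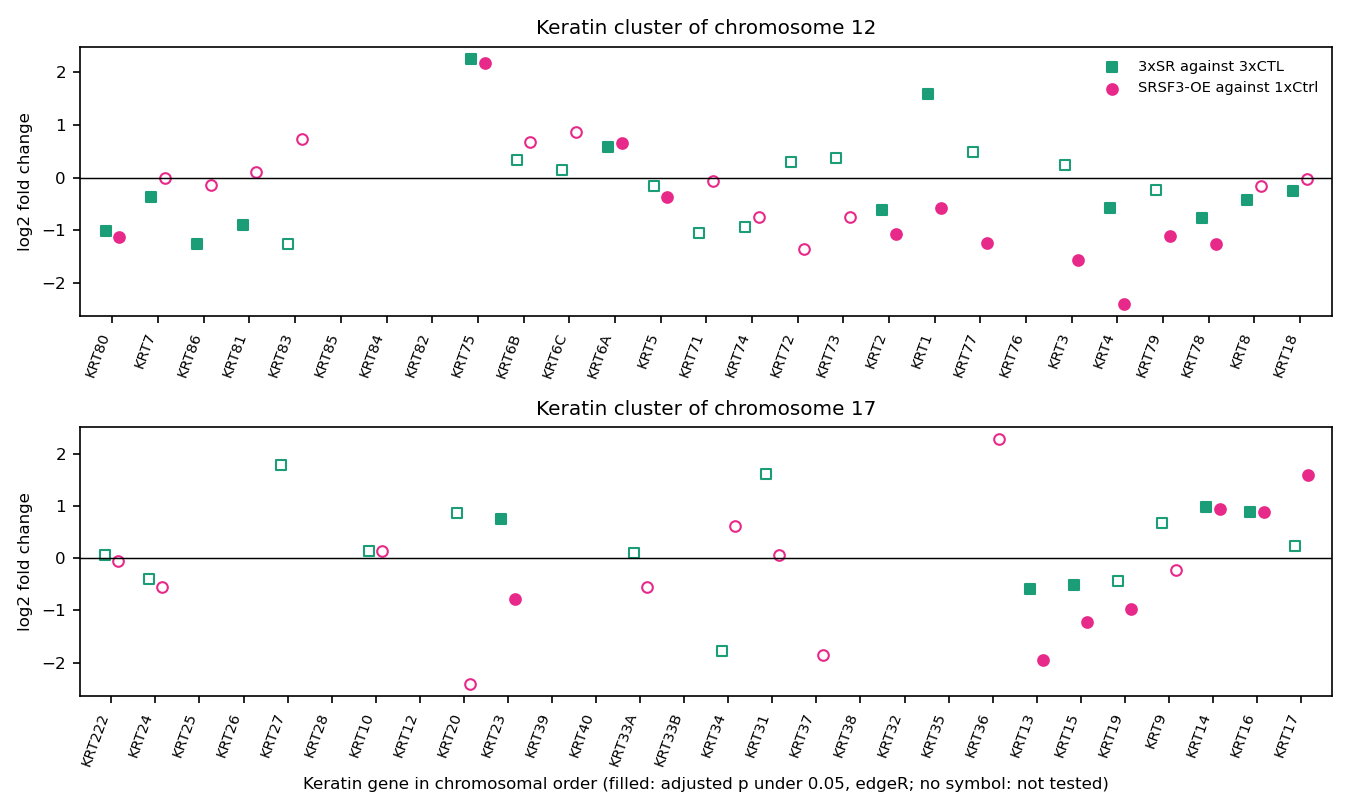
log2 fold change of each tested keratin in chromosomal order, chromosome 12 above and chromosome 17 below, for the 3xSR-labelled (squares) and SRSF3-OE libraries (circles), filled where edgeR's adjusted p was under 0.05. The SRSF3-OE circles from KRT2 to KRT78 lie below 0 and those from KRT14 to KRT17 above it.

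To show the sequence before the RefSeq starts of these neighbouring genes, the 250 bases upstream of each (GRCh38.p14, all on the minus strand, written 5′ to 3′ along the gene) are printed for 4 genes of the chromosome 12 stretch that fell in SRSF3-OE, KRT2 (chr12:52652212-52652461), KRT3 (chr12:52796118-52796367), KRT4 (chr12:52814117-52814366) and KRT79 (chr12:52834312-52834561), and for KRT75 (chr12:52434372-52434621), which rose. The RefSeq starts differ from the GENCODE 29 gene ends given above: the KRT4 window lies inside the GENCODE span of KRT4, and the KRT75 window lies partly inside that of KRT75. The RefSeq table had windows for 34 of the 55 keratins. Capitals mark matches on either strand to TATAA, the core of the TATA box, to CACGTG, the E-box that MYC with MAX can bind, to TGANTCA, the AP-1 site, and to GGGCGG, the GC box.
KRT2: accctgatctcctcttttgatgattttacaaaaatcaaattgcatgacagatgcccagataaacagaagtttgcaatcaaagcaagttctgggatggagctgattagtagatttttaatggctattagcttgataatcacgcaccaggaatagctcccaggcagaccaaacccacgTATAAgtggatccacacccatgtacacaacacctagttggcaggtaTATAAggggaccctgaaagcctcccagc
KRT3: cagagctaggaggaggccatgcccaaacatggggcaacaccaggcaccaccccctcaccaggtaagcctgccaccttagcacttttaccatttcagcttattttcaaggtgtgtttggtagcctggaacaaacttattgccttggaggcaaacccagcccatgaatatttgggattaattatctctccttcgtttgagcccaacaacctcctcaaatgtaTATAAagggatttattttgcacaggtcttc
KRT4: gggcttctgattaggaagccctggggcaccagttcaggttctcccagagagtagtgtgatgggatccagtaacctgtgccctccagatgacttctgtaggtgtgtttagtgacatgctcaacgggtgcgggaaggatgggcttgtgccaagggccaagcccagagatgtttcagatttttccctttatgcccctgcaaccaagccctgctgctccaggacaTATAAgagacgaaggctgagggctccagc
KRT79: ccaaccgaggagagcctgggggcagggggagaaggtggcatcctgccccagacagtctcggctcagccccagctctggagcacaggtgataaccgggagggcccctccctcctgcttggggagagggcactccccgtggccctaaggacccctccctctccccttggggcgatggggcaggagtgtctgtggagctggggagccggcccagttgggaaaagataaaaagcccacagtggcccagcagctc
KRT75: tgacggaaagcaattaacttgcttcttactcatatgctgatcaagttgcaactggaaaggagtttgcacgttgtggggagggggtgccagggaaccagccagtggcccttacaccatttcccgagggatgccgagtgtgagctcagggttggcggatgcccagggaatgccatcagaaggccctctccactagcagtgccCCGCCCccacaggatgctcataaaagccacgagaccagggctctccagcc

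TATAA was found in 5 of the 8 windows of described keratins (KRT2, KRT3, KRT4, KRT9 and KRT10), against 18.93% of all 35116 windows of the same length. In KRT4 the match covered the bases 25 to 29 before the start, in KRT3 the bases 26 to 30, and in KRT2 the bases 24 to 28 and 70 to 74. KRT79 and KRT75 had no TATAA match in this window. GGGCGG was found in 2 of the 8 windows, those of KRT75 and KRT9, against 42.64% of all windows. Neither CACGTG (6.34% of all windows) nor TGANTCA (6.57%) was found in the 8. No 2 matches overlapped in the 5 sequences printed. A match describes letters in this window and is not a binding site. The RefSeq table held no window for KRT1, KRT6A, KRT7, KRT13, KRT14, KRT17, KRT18 and KRT19, among others of the 23 described keratins. Those genes were therefore not searched for these matches.

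Summed over all 55 genes, keratins took between 0.482% and 0.817% of all counts in a library. The summed CPM was 7538, 5841 and 6887 in 3xCTL, 6609, 6406 and 6316 in the 3xSR-labelled and 8232, 8044 and 8019 in the MYC-OE libraries. It was 5185, 6778 and 4795 in 1xCtrl, 6722, 5785 and 5841 in the SRSF2-OE-labelled, 5469.5, 5034 and 5589.7 in SRSF3-OE and 6751, 6221 and 7012 in SRSF7-OE. MYC-OE lay wholly above its control, with a mean of 8098 ± 116 against 6755 ± 856 CPM (SD, n = 3; two-sided exact permutation p = 0.1, the smallest that 3 against 3 allows), and the other lines overlapped theirs (exact permutation p = 0.6 for 3xSR-labelled, 0.5 for SRSF2-OE-labelled, 0.9 for SRSF3-OE and 0.3 for SRSF7-OE). In SRSF3-OE, where KRT4, KRT13 and KRT19 fell and KRT14, KRT17 and KRT6A rose, the sum was 5364 ± 293 against 5586 ± 1050.1 CPM in 1xCtrl. Per length, type I keratins summed to 4024 ± 49.5 TPM in MYC-OE and 2938 ± 559 in 3xCTL, and type II keratins to 4562 ± 108 and 4139.8 ± 521. The log2 ratio of type II over type I was 0.51 ± 0.11 in 3xCTL, 0.46 ± 0.058 in the 3xSR-labelled and 0.18 ± 0.030 in the MYC-OE libraries, the last without overlap with 3xCTL (exact permutation p = 0.1). The same ratio in the second table was 0.39 ± 0.17 in 1xCtrl, 0.33 ± 0.023 in the SRSF2-OE-labelled, 0.24 ± 0.065 in SRSF3-OE and 0.20 ± 0.065 in SRSF7-OE, all overlapping 1xCtrl.

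**Figure D5:**
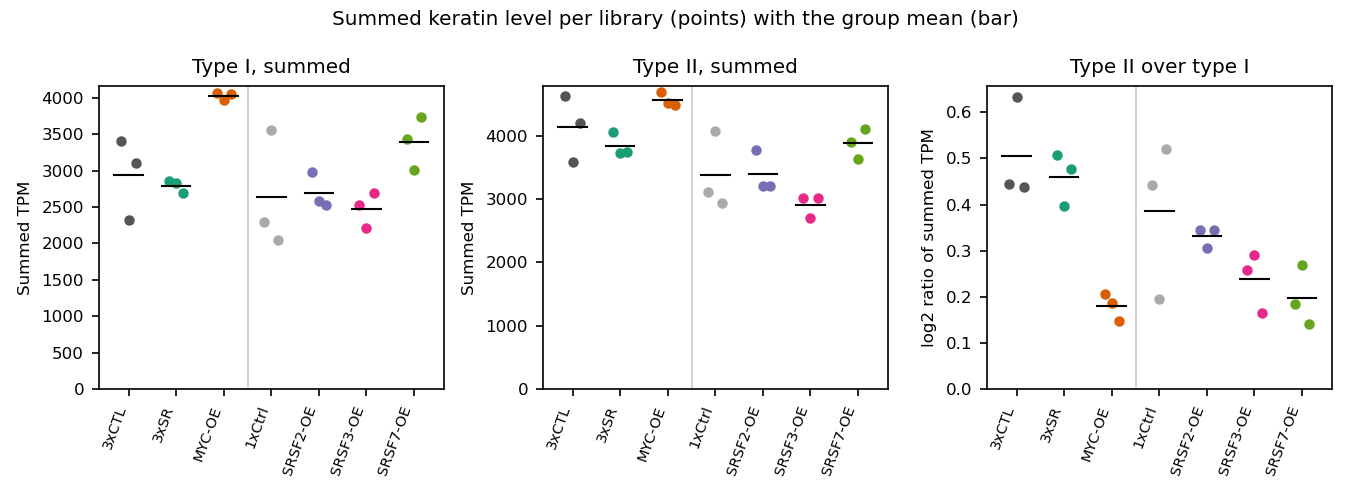
Summed TPM of the type I keratins, of the type II keratins and the log2 ratio of the sums, each point a library and each bar a group mean, every axis starting at 0. The MYC-OE libraries are the highest in type I, and the 1xCtrl libraries spread widely, replicate 2 having the highest sums and the lowest ratio of its group.

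Within canonical pairs the balance of type II over type I was read as the log2 ratio of TPM. For KRT5 over KRT14 the log2 ratio of TPM was 2.18 ± 0.11 in 3xCTL, 1.02 ± 0.057 in the 3xSR-labelled and 1.67 ± 0.055 in the MYC-OE libraries (SD, n = 3). It was 1.503 ± 0.25 in 1xCtrl, 1.04 ± 0.019 in the SRSF2-OE-labelled, 0.16 ± 0.10 in SRSF3-OE and 1.79 ± 0.061 in SRSF7-OE. Every line but SRSF7-OE lay wholly below its control (exact permutation p = 0.1 each, the smallest possible). KRT1 over KRT10 was -3.44 ± 0.32 in 3xCTL, -1.99 ± 0.11 in the 3xSR-labelled and -1.23 ± 0.014 in MYC-OE, and -2.42 ± 0.29 in 1xCtrl, -0.85 ± 0.047 in the SRSF2-OE-labelled, -3.18 ± 0.44 in SRSF3-OE and -3.65 ± 0.12 in SRSF7-OE, with overlap in SRSF3-OE alone. KRT7 over KRT19 was -0.12 ± 0.077 in SRSF3-OE against -1.05 ± 0.15 in 1xCtrl, and -1.32 ± 0.040 in MYC-OE against -0.68 ± 0.12 in 3xCTL. It also lay wholly above 1xCtrl in the SRSF2-OE-labelled libraries (difference of means 0.22) and wholly below it in SRSF7-OE (-0.24). KRT8 over KRT18 stayed between -0.76 and -0.28 in group means, lowest in SRSF3-OE and highest in MYC-OE, and lay wholly above the control in MYC-OE (difference 0.20) and SRSF7-OE (0.34). KRT4 over KRT13 was -1.75 ± 0.071 in SRSF3-OE and -1.29 ± 0.17 in 1xCtrl, without overlap (exact permutation p = 0.1). KRT6A over KRT16 was 5.03 ± 0.12 in MYC-OE and 5.57 ± 0.14 in 3xCTL, and lay wholly below 3xCTL in the 3xSR-labelled libraries too (difference -0.31). The exact permutation p was 0.1 in each comparison without overlap, and the pairs and lines not named overlapped their control.

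Lines of the same table were also compared directly, since a call in 1 line alone does not show a difference between lines. SRSF3-OE against the SRSF2-OE-labelled libraries gave 21 of 40 keratins (52.5%) past the threshold against 26.8% of all genes. Of these keratins 18 were lower and 3 higher in SRSF3-OE, beside 3081 lower and 3442 higher of all 24362 genes. SRSF7-OE against SRSF3-OE gave 19 of 40 (47.5%, all genes 35.2%). There 14 keratins were higher and 5 lower in SRSF7-OE, beside 4226 higher and 4343 lower of all genes. SRSF7-OE against the SRSF2-OE-labelled libraries gave 11 of 40 (27.5%, all genes 24.2%). In the first table MYC-OE against the 3xSR-labelled libraries gave 12 of 39 (30.8%, all genes 34.9%). Of these 10 were higher and 2 lower in MYC-OE, beside 4002 higher and 4074 lower of all 23160 genes. KRT4 was higher in SRSF7-OE than in SRSF3-OE by 2.75 ± 0.089 (edgeR adjusted p = 1.001e-09), and KRT13 by 2.45 ± 0.13 (edgeR adjusted p = 9.83e-08). KRT17 was lower in SRSF7-OE than in SRSF3-OE (log2 difference -1.82 ± 0.25, edgeR adjusted p = 0.000402), and so was KRT14 (-1.21 ± 0.17, edgeR adjusted p = 0.000348). KRT1 was lower in SRSF3-OE than in the SRSF2-OE-labelled libraries (-2.66 ± 0.18, edgeR adjusted p = 6.61e-07). Between the lines of the first table, KRT19 was higher in MYC-OE than in the 3xSR-labelled libraries by 1.18 ± 0.15 (edgeR adjusted p = 0.000483), KRT8 by 0.82 ± 0.077 (edgeR adjusted p = 1.45e-05), and KRT14 was lower (-0.51 ± 0.10, edgeR adjusted p = 0.00360).

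The change in the 3xSR-labelled libraries was set against that of each single line, each against its own control, in a joint fit of all 21 libraries with 42 keratins tested. It differed from the SRSF2-OE-labelled change for 7 keratins (all genes 21.9%), from the SRSF3-OE change for 8 (all genes 17.8%) and from the SRSF7-OE change for 15 (all genes 24.6%). The first of these counts was 13 without 1xCtrl replicate 2 (all genes 29.8%). Against SRSF3-OE, the fall of KRT4 was smaller in the 3xSR-labelled libraries by 1.84 ± 0.11 (edgeR adjusted p = 8.60e-10) and that of KRT13 by 1.38 ± 0.21 (edgeR adjusted p = 0.000233), while the KRT17 change was lower (-1.34 ± 0.31, edgeR adjusted p = 0.00709). For KRT14 the same difference was 0.057 ± 0.23 (edgeR adjusted p = 0.914) and for KRT75 it was 0.091 ± 0.71 (edgeR adjusted p = 0.961), neither past the threshold. Against SRSF7-OE, the KRT8 change was lower in the 3xSR-labelled libraries (-1.17 ± 0.19, edgeR adjusted p = 0.000219), as were those of KRT19 (-1.15 ± 0.31, edgeR adjusted p = 0.0141) and KRT80 (-1.29 ± 0.10, edgeR adjusted p = 1.27e-08).

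Genes that anchor, regulate or resemble keratins were read from set lists, beside a median log2 fold change over all genes tested that lay between -0.025 and -0.0038 in the 5 contrasts. The shares of all genes that rose and fell were 15.3% and 13.7% in the 3xSR-labelled, 18.0% and 17.3% in the MYC-OE, 11.6% and 11.9% in the SRSF2-OE-labelled, 15.0% and 14.1% in the SRSF3-OE and 9.03% and 8.26% in the SRSF7-OE libraries. Of 27 linkers of keratin filaments (desmosome and hemidesmosome genes and plakins), all tested, 10 rose and 6 fell in the 3xSR-labelled, 6 and 6 in the MYC-OE, 3 and 6 in the SRSF2-OE-labelled, 4 and 4 in the SRSF3-OE and 0 and 10 in the SRSF7-OE libraries, and their median log2 fold change lay between -0.17 and 0.12. ITGA6, the integrin chain of the hemidesmosome to which KRT5 and KRT14 filaments attach, rose in MYC-OE (1.22 ± 0.056, edgeR adjusted p = 1.68e-08), in the 3xSR-labelled (1.15 ± 0.055, edgeR adjusted p = 4.56e-08), SRSF2-OE-labelled (0.33 ± 0.092, edgeR adjusted p = 0.0193) and SRSF3-OE libraries (0.74 ± 0.093, edgeR adjusted p = 6.84e-05). Its mean was 918 ± 47.7 CPM in 3xCTL, 2139 ± 23.2 in MYC-OE, 1593 ± 167 in 1xCtrl and 2661 ± 292 in SRSF3-OE (SD, n = 3). PPL, the periplakin that links keratins to the cornified envelope, fell in SRSF3-OE (-0.89 ± 0.12, edgeR adjusted p = 0.000238) and in the 3xSR-labelled libraries (-0.61 ± 0.078, edgeR adjusted p = 0.000128), where KRT4 and KRT13 fell. The desmosomal cadherins DSG2 and DSC2 fell in the SRSF2-OE-labelled libraries (-0.49 ± 0.080, edgeR adjusted p = 0.000810 and -0.41 ± 0.081, edgeR adjusted p = 0.00261), and DSC2 and DSG3 fell in SRSF7-OE (-0.56 ± 0.081, edgeR adjusted p = 0.000826 and -0.55 ± 0.082, edgeR adjusted p = 0.00105), where no linker rose. COL17A1, a hemidesmosome collagen, rose in MYC-OE (0.52 ± 0.065, edgeR adjusted p = 6.43e-05).

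Of 31 transcription factors known for epithelial or keratin genes, all tested, 14 rose and 6 fell in the 3xSR-labelled, 11 and 5 in the MYC-OE, 10 and 4 in the SRSF2-OE-labelled, 6 and 5 in the SRSF3-OE and 5 and 1 in the SRSF7-OE libraries, and their median log2 fold change lay between 0.049 and 0.12. ELF3, an epithelial ETS factor, changed in all 5 lines, falling in the 3xSR-labelled and SRSF2-OE-labelled libraries and rising in MYC-OE as well. Its mean was 49.0 ± 5.71 CPM in 1xCtrl, 17.9 ± 1.27 in SRSF3-OE and 83.8 ± 3.69 in SRSF7-OE, a fall (-1.45 ± 0.082, edgeR adjusted p = 1.10e-07) and a rise (0.77 ± 0.080, edgeR adjusted p = 7.81e-05). SOX9, a factor of hair follicle and gland progenitors, rose in the 3xSR-labelled libraries (0.84 ± 0.093, edgeR adjusted p = 3.85e-05) and in SRSF3-OE (0.80 ± 0.091, edgeR adjusted p = 3.30e-05). OVOL1, a repressor active in differentiating epidermis, and TFAP2C rose in the SRSF2-OE-labelled libraries (1.14 ± 0.13, edgeR adjusted p = 4.94e-05 and 0.58 ± 0.074, edgeR adjusted p = 0.000131), GRHL1 fell in MYC-OE (-0.41 ± 0.070, edgeR adjusted p = 0.000731), CEBPA fell in the 3xSR-labelled libraries (-0.53 ± 0.10, edgeR adjusted p = 0.00177) and CEBPB rose in all 5 lines, in SRSF7-OE by 0.63 ± 0.078 (edgeR adjusted p = 0.000286). Of 18 other intermediate filament genes, 16 were tested in the first and 15 in the second table, and 5 rose and 2 fell in the 3xSR-labelled, 5 and 4 in the MYC-OE, 6 and 1 in the SRSF2-OE-labelled, 5 and 3 in the SRSF3-OE and 3 and 1 in the SRSF7-OE libraries, and their median log2 fold change lay between -0.093 and 0.23. NEFH, the heavy neurofilament chain, rose in every line, most in MYC-OE (2.99 ± 0.079, edgeR adjusted p = 2.84e-10) and in the 3xSR-labelled libraries (2.05 ± 0.077, edgeR adjusted p = 7.32e-09), from a mean of 2.73 ± 0.0966 CPM in 3xCTL to 21.7 ± 0.675 in MYC-OE. IFFO2 rose in SRSF3-OE (0.69 ± 0.058, edgeR adjusted p = 2.76e-06) and in the 3xSR-labelled libraries (0.42 ± 0.053, edgeR adjusted p = 0.000119) and fell in SRSF7-OE (-0.27 ± 0.058, edgeR adjusted p = 0.00705) and MYC-OE (-0.27 ± 0.053, edgeR adjusted p = 0.00203). SYNM, which links intermediate filaments to other structures, rose in the SRSF2-OE-labelled libraries (0.43 ± 0.074, edgeR adjusted p = 0.00105) and fell in SRSF3-OE (-0.39 ± 0.074, edgeR adjusted p = 0.00151) and MYC-OE (-0.39 ± 0.072, edgeR adjusted p = 0.00117). How any of these genes bears on the keratin levels was not tested.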

How the data were processed

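RNA-seq of 21 HCC1806 libraries in 7 groups of 3 was analysed. The authors deposited whole-number counts per gene in 2 tables, and per the labels' protocols the library kit is stranded with polyA selection. The submitters' processing notes name Trimmomatic 0.39, STAR, StringTie 2.1.3b and the build GRCh38.p13, with no role or order. The annotation, the strand setting and the counting step are not given in the sources used here, so the counts may come from transcript coverage and total counts need not equal read pairs. All columns were mapped to samples, and every row names a gene.

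Each table was fitted separately with edgeR 4.0.16 in R 4.3.3 (quasi-likelihood test, TMM scaling, edgeR's default filter on low counts, all groups of the table in the fit), and p-values were adjusted by Benjamini-Hochberg over all genes. A joint fit of all libraries compared the change of the 3xSR-labelled libraries with that of each single line. CPM were computed from the deposited counts and the TMM-scaled totals. TPM were computed from counts and GENCODE 29 transcript lengths, matched by gene ID. Promoter sequences are RefSeq's, build GRCh38.p14. Sums and ratios were compared by two-sided exact permutation tests, which with 3 against 3 cannot go below 0.1. The scripts were tested on simulated data.

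The keratins, the lists and the tests were chosen with earlier results of these data known. Keratins with a mean of at least 1 CPM in a group are described. Those called in at least 3 of 5 contrasts, or with a mean of at least 100 CPM in a group, have their value given in every library. From each other list, the genes with the largest called change were named, at most 2 per contrast, with a mean of at least 5 CPM. The alternatives were RLE and upper-quartile scaling, total counts alone, no filter, at least 10 counts in every library, DESeq2 1.42.0, limma 3.58.1 (voom), only the 2 groups compared, a replicate block, removal of the GC trend, and leaving out each library. The values of 1 transcription factor in the lists are not reported here.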

Additional observations from a re-analysis of the deposited data

Results flagged for a closer look

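Each keratin here was picked because it rose in 1 line and fell in another, each against its own control. The difference between those lines also passed edgeR's test, but it is built from the same changes and adds no support to them. Some of the calls used for the pick were lost in alternatives. Among these were KRT13 and KRT80 in SRSF7-OE (7 of 16 each) and KRT75 in the 3xSR-labelled libraries (8 of 16). Values are log2 differences. KRT1 was lower in SRSF3-OE than in the SRSF2-OE-labelled libraries (-2.66) and lower in SRSF7-OE than in them (-3.10), and its change in the 3xSR-labelled libraries was above its SRSF3-OE change by 2.17 and above its SRSF7-OE change by 2.60. KRT4 was higher in SRSF7-OE than in SRSF3-OE by 2.75, and KRT13 by 2.45. The change in the 3xSR-labelled libraries minus that in SRSF7-OE was -0.92 for KRT4 and -1.07 for KRT13.

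KRT8 was higher in MYC-OE than in the 3xSR-labelled libraries by 0.82 and KRT18 by 0.46. The 3xSR-labelled change minus the SRSF7-OE change was -1.17 for KRT8 and -0.69 for KRT18, and minus the SRSF2-OE-labelled change it was -0.62 for KRT18. KRT23 was lower in SRSF3-OE than in the SRSF2-OE-labelled libraries (-1.56), and its 3xSR-labelled change exceeded the SRSF3-OE change by 1.54. KRT75 was lower in SRSF7-OE than in the SRSF2-OE-labelled (-2.38) and SRSF3-OE libraries (-3.26), and its 3xSR-labelled change exceeded the SRSF7-OE change by 3.34, at levels near 1 CPM. KRT80 was higher in SRSF7-OE than in SRSF3-OE by 1.41, and its 3xSR-labelled change minus the SRSF7-OE change was -1.29.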

How the results depend on the processing

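Of 115 pairs of a described keratin and a contrast against a control, 58 were called, and 41 of these kept the call and its direction in all 16 alternatives run for each. The other 17 lost the call in at least 1 alternative, 10 of them with only the 2 groups compared, 3 with the GC trend removed and 1 with the replicate block (KRT75 in the 3xSR-labelled libraries), and no called pair changed sign. Another 26 pairs were gained in at least 1 alternative. Of all genes averaging 1 CPM or more, the share called ran from 25% in SRSF7-OE to 45.5% in MYC-OE. How many of those calls were kept in every alternative was not computed. The counts of kept, lost and gained keratin pairs are therefore not read as a result about keratins. Leaving out 1 library at a time gave 11 to 21 keratins called in the 3xSR-labelled libraries (17 with all; all genes 20.5% to 38.5%), 7 to 15 in the SRSF2-OE-labelled libraries (9; all genes 18.9% to 30.0%) and 3 to 14 in SRSF7-OE (9; all genes 10.7% to 29.2%). The difference between the 3xSR-labelled and SRSF2-OE-labelled changes was called for 7 to 13 keratins (7; all genes 17.4% to 29.8%). With the GC trend removed, 14 keratins were called in the SRSF2-OE-labelled libraries (all genes 33.9%) and 15 in SRSF7-OE (all genes 29.2%), and with only the 2 groups compared 5 were called in SRSF7-OE (all genes 9.76%). KRT7 in SRSF3-OE went from -0.014 to 0.18 with the GC trend removed. The cause of these shifts was not tested. With a replicate block the counts were 16 in the 3xSR-labelled, 13 in the MYC-OE, 9 in the SRSF2-OE-labelled, 18 in the SRSF3-OE and 9 in the SRSF7-OE libraries. The shares of all genes called with this block are not given, so these counts are not read as a result about keratins. Deviations of libraries of the same number were not positively correlated on average (mean correlations -0.0125, -0.00675, -0.0272, -0.0208 and -0.107 in the same order). Whether such libraries were prepared together is not given in the sources used here, and these correlations cannot settle it. Total counts alone moved the median of all genes to -0.136 in SRSF3-OE.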
